A study of Mus musculus with 12 samples.

Results

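The extracellular metalloproteases and their inhibitors are described here in the tibialis anterior, a fast muscle of the mouse hind limb, of mice that lack the muscle methyltransferase SMYD1 in their myofibers. The members were chosen by symbol, as every Mmp gene, every Adamts or Adamts-like (Adamtsl) gene and the Timp genes Timp1 to Timp4. This gave 51 of the 23923 genes analysed, of which 23 were Mmp, 19 Adamts, 5 Adamtsl and 4 Timp genes. RNA was sequenced from 12 mice aged 6 weeks, with 1 library per mouse. By the study's text, the experiments that followed its histology of both sexes used tissue of males only. The 6 controls carried Myf6 cre/+; Smyd1 flox/+, and the 6 conditional knockouts (Smyd1 CKO, or CKO below) carried Myf6 cre/+; Smyd1 flox/-. By the study's methods every mouse of both groups also carried a Rosa26 YFP/+ reporter, and the strain was labelled C57BL6/J;129S1/SvImJ. Every mouse thus had Cre and 1 Smyd1 allele that Cre can delete, beside a wild-type allele in the controls and a null allele in the CKOs. Myf6 cre acts in myofibers, so fibroblasts, vessels, nerves and immune cells of the muscle kept their alleles, while the RNA came from whole muscle. In such bulk RNA, a change in the number of cells of a type cannot be told apart from a change in RNA per cell. Values are FPKM, which scale the fragments of a gene by the length of its transcript and by the mapped fragments of the library.

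Matrix metalloproteases (MMPs) are zinc enzymes that are made as inactive precursors and cut collagens, basement membrane proteins and other extracellular proteins once their propeptide is removed. ADAMTS enzymes are related secreted proteases with thrombospondin repeats. Some of them cut proteoglycans such as versican and aggrecan, and some trim procollagens. ADAMTS-like proteins have the repeats but no protease domain, and several bind fibrillin microfibrils. TIMPs bind the active site of these enzymes and block it. In skeletal muscle MMP2, MMP14 and TIMP2 work together in the activation of MMP2, and much of this gene set is made by fibroblasts of the connective tissue.

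A run of 10 Mmp genes lies side by side on chromosome 9 with no other protein-coding gene between them (RefSeq, GRCm38.p6), in the order Mmp13, Mmp12, Mmp1b, Mmp3, Mmp1a, Mmp10, Mmp8, Mmp27, Mmp20 and Mmp7. They are shown first because the run held Mmp13, which was high in few mice. The run also held the 4 members that were listed at 0 FPKM in all 12 libraries, Mmp1a, Mmp1b, Mmp7 and Mmp20. RefSeq promoter windows (GRCm38.p6), each with 250 bases before and 50 after a transcription start, were found for 36 of the 51 members. The letters TGAGTCA or TGACTCA, which are each other's reverse complement and the form of element that AP-1 factors bind, stood in the windows of 7 members, all of them in this run of 10. All 10 genes of the run had a window, so the members without one lay outside the run and were not examined. Of all 32851 windows, 5.2% held these letters, which is a share of windows and not of the 27025 genes they belong to. The 100 bases before the start are printed for 4 of the 7 genes, with the 7 letters in capitals.

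Mmp13, chr9:7272414-7272513, plus strand: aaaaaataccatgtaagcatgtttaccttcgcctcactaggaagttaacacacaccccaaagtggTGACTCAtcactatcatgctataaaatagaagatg
Mmp3, chr9:7445722-7445821, plus strand: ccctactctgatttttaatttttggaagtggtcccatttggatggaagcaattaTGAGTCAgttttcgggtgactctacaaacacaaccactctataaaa
Mmp10, chr9:7502242-7502341, plus strand: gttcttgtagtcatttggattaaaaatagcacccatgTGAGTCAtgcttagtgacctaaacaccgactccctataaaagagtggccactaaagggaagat
Mmp7, chr9:7691990-7692089, plus strand: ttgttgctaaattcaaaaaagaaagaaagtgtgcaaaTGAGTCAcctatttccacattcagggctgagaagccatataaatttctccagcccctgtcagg

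The first base of the capital letters lay 35 bases before the start in Mmp13, 46 in Mmp3 and 63 in Mmp10 and in Mmp7. These 4 genes had the letters in common, and their FPKM differed widely. Mmp13 reached 5.03 FPKM, Mmp3 reached 0.668, Mmp10 had signal in 1 library only, at 0.0475, and Mmp7 had none. A match of letters describes the window and was not tested as a binding site.

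Smyd1 itself did not separate the groups at the level of the whole gene. It measured 37.4 ± 5.64 FPKM (SD, n = 6) in the controls and 34.1 ± 4.36 (SD, n = 6) in the CKOs, with a limma adjusted P of 0.545. After median-ratio scaling, explained below, its log2 fold change was -0.32 (adjusted P = 0.0797). A whole-gene value cannot show an allele that lacks part of its transcript, and the deleted part is not given in the sources used here, so this value does not check the labels. At the protein level, the study could not detect SMYD1 in CKO tibialis anterior by western blot. The genes of fast myofibers Myh4, Acta1, Ckm and others were present in every library. Summed over 9 markers they were at 39561 FPKM in control 1 and at 24100 to 32671 in the other mice. Relative depth, read from the steps between low FPKM values, ran from 0.984 (CKO 5) to 1.77 (CKO 1) times that of control 1, and no difference between the groups was detected (exact permutation test, two-sided, P = 0.524).

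Control 1 stood apart from the other controls before any comparison of groups. Its sum over 10 fibroblast markers was 915 FPKM, against 247 to 329 in controls 2 to 6 and 370 to 558 in the CKOs. Its sum over 9 macrophage markers was 52.1 FPKM, against at most 22.1 in the other controls and 31.8 in the CKOs. It was also the highest mouse for the sums of adipocyte (308 FPKM, of which 305 was Fabp4), tenocyte (62.8), smooth muscle (90.6), red cell (52.0) and, as given above, fast myofiber (39561) markers. The sums of endothelial (33.4 to 46.9 and 33.3 to 54.3 FPKM), Schwann cell (11.7 to 16.1 and 13.4 to 21.2) and keratinocyte markers (0.109 to 0.198 and 0.0340 to 0.271) overlapped between controls and CKOs. Some of these lists also differed between the groups at an unadjusted P below 0.05 in limma, the test described below, by which 18.1% of all genes were higher and 1.76% lower in the CKOs. Of the 5 tested adipocyte markers 3 were higher, namely Retn (log2 fold change 1.80, adjusted P = 0.0322), Cfd (1.39, adjusted P = 0.0564) and Adipoq (0.80, adjusted P = 0.179), while Fabp4 was at -0.20. Of the 8 tenocyte markers 2 were lower, namely Kera (log2 fold change -0.69, limma adjusted P = 0.168) and Mkx (-0.98, adjusted P = 0.109), and the median of that list was -0.39. Of the 6 Schwann cell markers 3 were higher. None of the 9 macrophage markers passed with all mice, and 8 of 9 were higher without control 1, beside 27.2% of all genes, with a median log2 fold change of 0.62. These marker genes were named after their values were seen, and the part of these cells in the results below was not tested. Control 1 had the highest control value in 20 of the 30 members tested below. The share over all genes was not computed, so this count does not set the members apart from other genes. The results are therefore given with all 12 mice, and without control 1 where this moved a described member or the count of a list past the adjusted threshold.

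**Figure D1:**
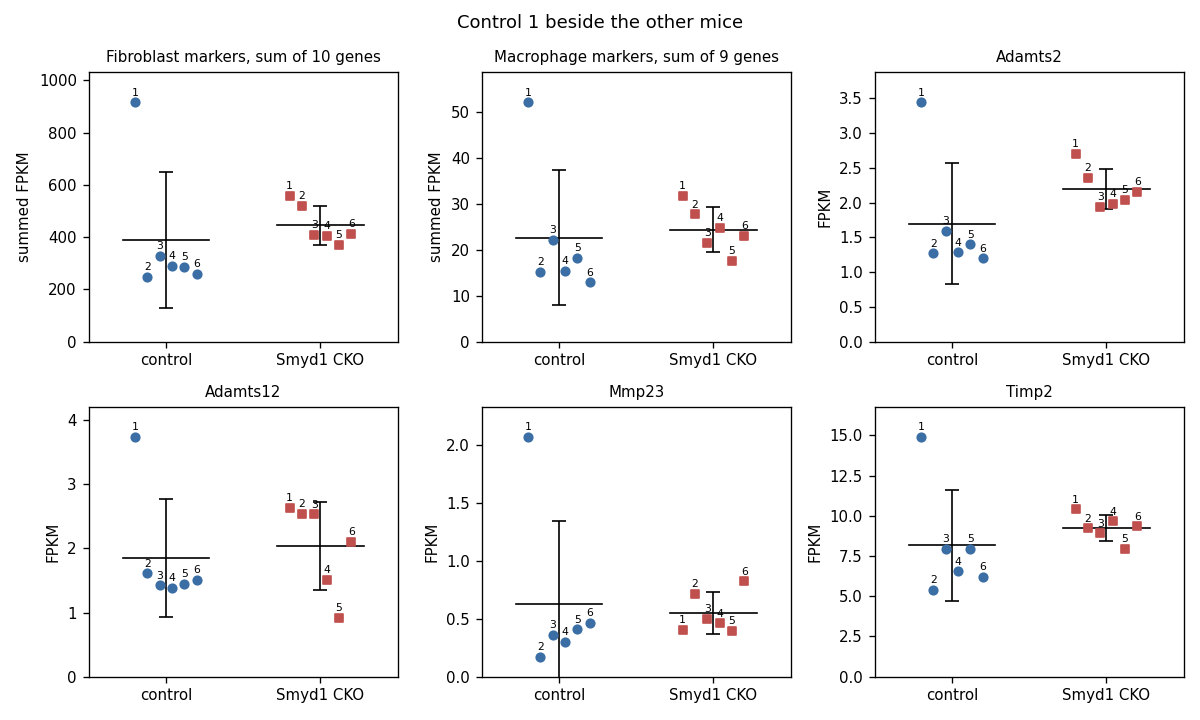
Summed FPKM of fibroblast and macrophage markers and FPKM of Adamts2, Adamts12, Mmp23 and Timp2 in each mouse. Circles are controls and squares are Smyd1 CKOs, numbers beside the points are replicate numbers, the horizontal line is the mean and the bar is 1 SD (cut at 0); control 1 lies above all other mice in the 6 panels, at 915 FPKM for the fibroblast markers.

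The TIMP transcripts were the most abundant of the set. The 4 Timp genes made up 40.7% to 56.6% of the summed FPKM of the 51 members in the controls and 42.2% to 54.0% in the CKOs. Timp3, Timp4, Mmp2, Timp2 and Adamts1 had the 5 highest mean FPKM. At the other end, 21 members had under 0.1 FPKM in at least 7 of the 12 mice and were not tested. Of these 21, the 4 named above were at 0 throughout, 11 stayed between 0 and 0.086 FPKM at their highest, and 6 (Adamts4, Adamts7, Adamts17, Mmp9, Mmp13 and Mmp27) passed 0.1 FPKM in at least 1 mouse.

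The remaining 30 members were compared between groups with limma on log2(FPKM + 0.1), so that fold changes of low genes are understated, with P adjusted over all 12695 genes tested. In the CKOs Adamts20 and Adamtsl4 rose and Adamts8 fell past the adjusted threshold of 0.05. Over all genes tested, 2.02% rose and 0.268% fell by the same rule. At an unadjusted P below 0.05, 7 of the 30 members (23.3%) were higher in the CKOs, namely Adamts10, Adamts20, Adamtsl1, Adamtsl2, Adamtsl4, Mmp14 and Mmp15, beside 18.1% of all genes. Adamts8 was the 1 member (3.33%) lower at that level, beside 1.76% of all genes. The median log2 fold change was 0.16 over the 30 members and 0.18 over all genes with all mice, and 0.32 and 0.22 without control 1. Log2 fold changes were above 0 for 25 of the 30 members (83.3%) and for 77.9% of all genes.

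This leaning depends on how the libraries are scaled. Median-ratio scaling, which sets the typical gene equal between libraries, moved the median of all genes from 0.18 to 0.01 on the log2 scale and that of the members from 0.16 to 0.00331, with 15 of 30 members (50%) above 0 against 51.2% of all genes. Adamts20 (higher) and Adamts8 (lower) then passed the adjusted threshold, while Adamtsl4 did not. The backgrounds were 0.764% of genes higher and 0.709% lower. At an unadjusted P, 5 members were higher (Adamts20, Adamtsl1, Adamtsl2, Adamtsl4 and Mmp14, 16.7% of the members against 6.62% of all genes) and 2 were lower (Adamts1 and Adamts8, 6.67% against 7.44%). Adamts10 and Mmp15 no longer passed.

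Leaving out control 1, with FPKM as deposited, raised the count past the adjusted threshold to 7 higher members, which were Adamts2, Adamts10, Adamts20, Adamtsl1, Adamtsl4, Mmp2 and Timp2, while Adamts8 was again lower. The share of all genes past the same threshold rose as well, to 8.56% higher and 0.549% lower. Few other settings gave this for the members that joined. The adjusted P was under the threshold in 1 of 22 alternative runs for Timp2 and in 2 of 22 for Mmp2 and for Adamts10. It was under the threshold in 3 of 22 for Adamts2 and in 2 of 21 for Adamtsl1. At an unadjusted P, 11 members were higher (36.7%, against 27.2% of all genes) and 1 was lower (3.33%, against 1.79%). Control 1 was singled out by its own values. It was the highest control for each of the 7 higher members above and the lowest for Adamts8. The P values without it are therefore not separate tests of a group difference. When any other single mouse was left out, the count of higher members past the adjusted threshold was 1 or 2. With median-ratio scaling and without control 1 together, Adamts2 and Adamts20 were higher (6.67% of the members) and Adamts8 lower (3.33%) past the adjusted threshold, beside 1.43% and 1.45% of all genes. At an unadjusted P, 9 members were higher (30%, against 8.71% of all genes) and 2 were lower (6.67%, against 9.09%) under that setting.

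**Figure D2:**
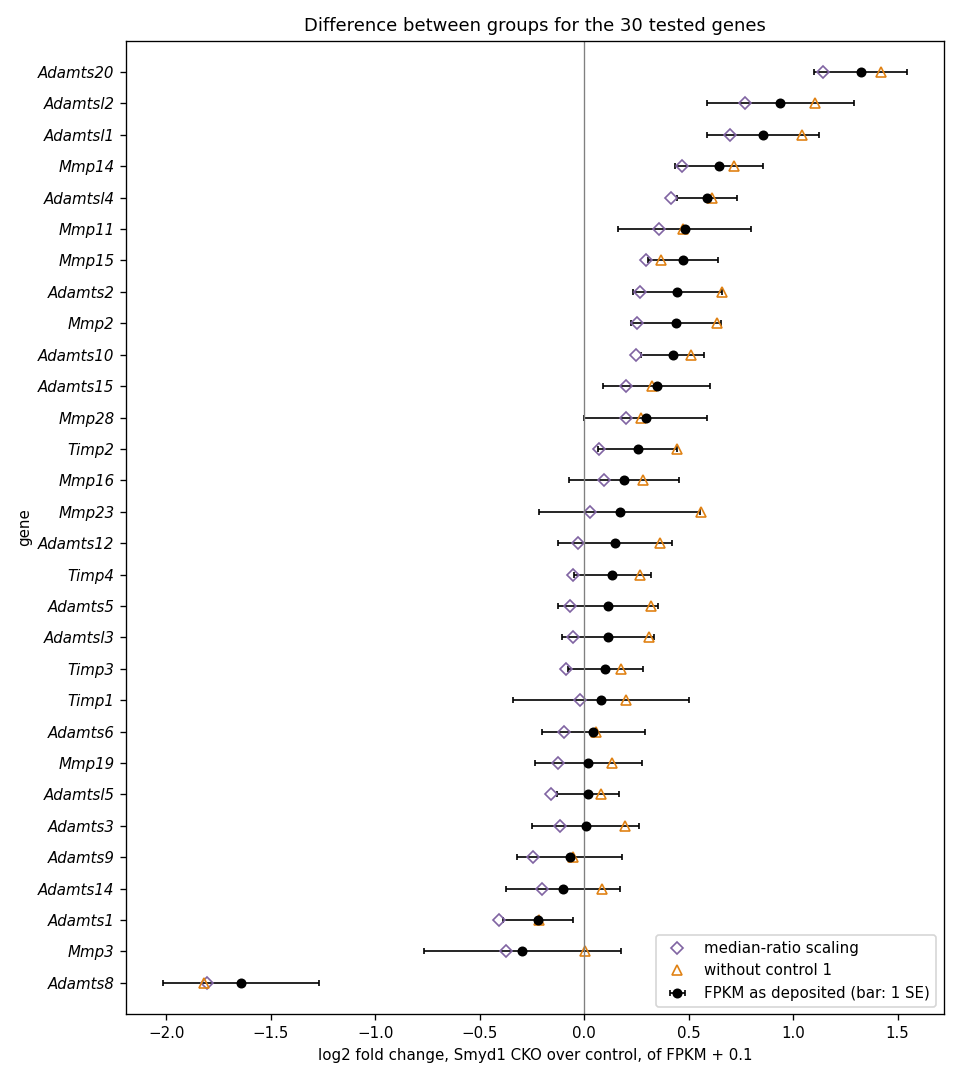
Log2 fold change of FPKM + 0.1, Smyd1 CKO over control, for the 30 tested members (vertical axis), from FPKM as deposited (filled circles, bars are 1 SE), after median-ratio scaling (diamonds) and without control 1 (triangles). Adamts20 at 1.32 and Adamts8 at -1.64 lie farthest from 0 under all 3 settings, while the 4 Timp genes lie between 0.0808 and 0.257 with FPKM as deposited.

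Among the proteoglycan-cutting ADAMTS genes, Adamts20 rose and Adamts8 fell, and the other 4 tested members did not pass the test. ADAMTS20 cuts versican and is known for its part in the spread of pigment cells in the embryo. Adamts20 ran from 0.972 FPKM (control 3) through a median of 1.16 to 1.83 (control 1) in the controls, and from 2.34 (CKO 5) through a median of 2.97 to 5.87 (CKO 6) in the CKOs. The groups did not overlap. All 6 CKO values lay above all 6 control values in 2.23% of the genes tested and below them in 0.189%, and Adamts20 and Adamtsl4 were the members that did the former, while no member did the latter. Adamts20 was 2.5 times as high in the CKOs (log2 fold change 1.32, SE 0.22, limma adjusted P = 0.00679). After median-ratio scaling its log2 fold change was 1.14 (adjusted P = 0.0136), and without control 1 it was 1.42 (adjusted P = 0.00256). The adjusted P stayed under the threshold in 22 of 22 alternatives, at 0.00087 to 0.041, including all 12 in which 1 mouse was left out.

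Adamts8, whose product also cuts proteoglycans and has been studied as an inhibitor of vessel growth, was the member that fell. It ran from 0.917 FPKM (control 1) through a median of 1.99 to 3.40 (control 2) in the controls. In the CKOs it ran from 0.245 (CKO 1) through a median of 0.480 to 1.61 (CKO 5). CKO 5 was the 1 CKO within the range of the controls, since the other 5 lay at or below 0.604, under the lowest control. The log2 fold change was -1.64 (SE 0.37, limma adjusted P = 0.0341), which is 0.32 of the control level. It was -1.81 after median-ratio scaling (adjusted P = 0.0318) and -1.82 without control 1 (adjusted P = 0.0102). The adjusted P was under the threshold in 11 of 22 alternatives and ran from 0.00362 to 0.122. It was above the threshold when control 2, 3, 4 or 6, or CKO 1, 2, 3, 4 or 6, was left out (at most 0.0908), and at 0.00394 without CKO 5.

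Adamts8 and Adamts15 are direct neighbours in the genome (RefSeq, GRCm38.p6), and Adamts15 did not pass the test. It ran from 0.187 to 0.569 FPKM in the controls and from 0.262 to 0.777 in the CKOs, with an unadjusted P of 0.193. The ratio of Adamts20 to Adamts8 within a mouse ran from 0.326 to 2.0 in the controls and from 1.46 (CKO 5) to 12.6 (CKO 1) in the CKOs. Control 1, at 2.0, and CKO 5, at 1.46, were the mice whose ratios overlapped.

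Adamts1, the most abundant Adamts gene and a versican- and aggrecan-cutting enzyme, ran from 6.08 to 9.25 FPKM in the controls and from 3.98 (CKO 5) to 9.07 (CKO 6) in the CKOs. Its log2 fold change was -0.22 (unadjusted P = 0.202) with FPKM as deposited and -0.41 (unadjusted P = 0.0308, limma adjusted P = 0.293) after median-ratio scaling. Adamts5, its neighbour in the genome and the major aggrecan-cutting enzyme of mouse cartilage, ran from 1.91 to 5.50 FPKM in the controls, with control 1 highest, and from 1.95 to 3.79 in the CKOs (unadjusted P = 0.643). Adamts9 ran from 1.06 to 3.19 and from 0.872 to 2.52 FPKM (unadjusted P = 0.789). Adamts4, the remaining gene of this class, had at most 0.185 FPKM and was not tested. Its few fragments are uncertain.

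**Figure D3:**
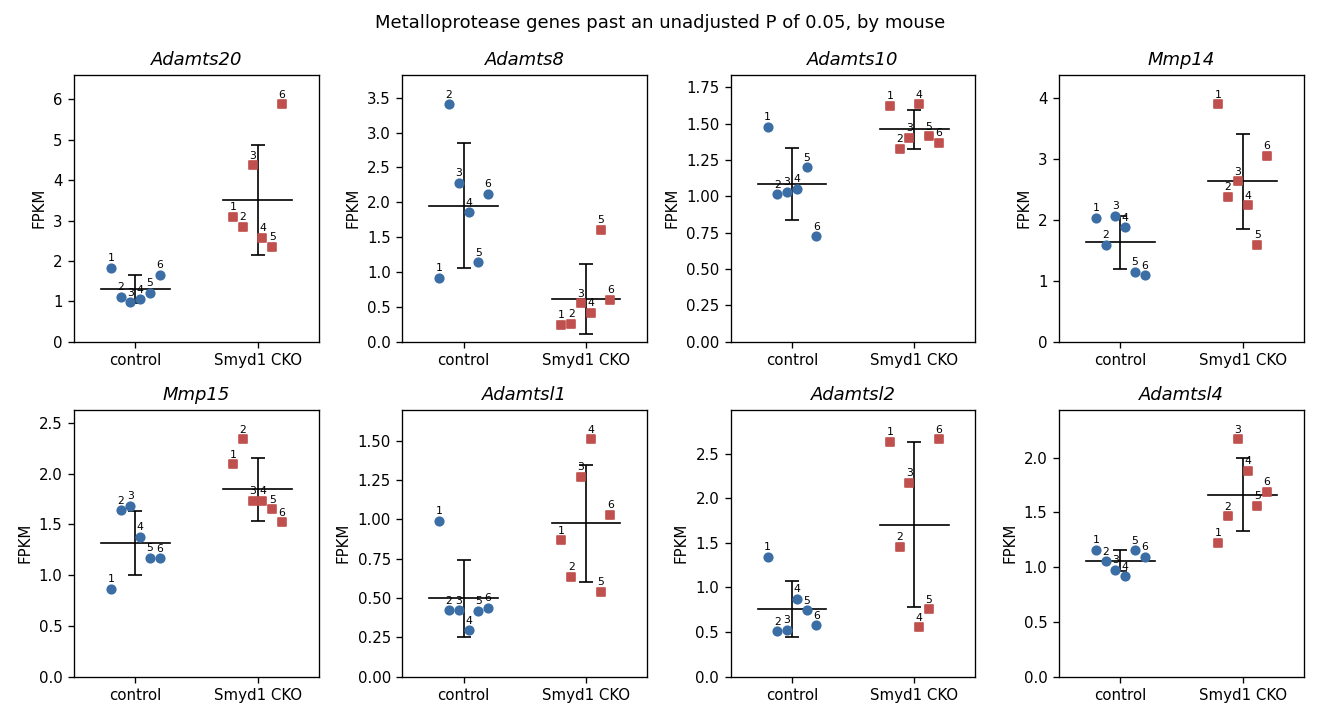
FPKM by mouse of the 8 members with an unadjusted P below 0.05. Circles are controls, squares are Smyd1 CKOs, numbers beside points are replicate numbers, lines are means and bars are 1 SD (n = 6 per group); Adamts20 and Adamtsl4 show no overlap of the groups, and Adamts8 shows CKO 5 at 1.61 FPKM among the controls.

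The 3 Adamts genes that trim the amino end of procollagens did not pass the test with all 12 mice. Adamts2, the main procollagen N-proteinase of skin, was at 3.44 FPKM in control 1, at 1.20 to 1.60 in controls 2 to 6 and at 1.94 to 2.70 in the CKOs. The CKOs thus lay above every control other than control 1. Its log2 fold change was 0.44 (limma adjusted P = 0.257) with all mice and 0.66 (adjusted P = 0.00788) without control 1. In all, 5 of the tested members (Adamts2, Adamts10, Adamts20, Adamtsl1 and Adamtsl4) had their 6 CKO values above those of controls 2 to 6, as did 6.1% of all genes tested. Adamts3 ran from 0.135 to 0.513 and from 0.158 to 0.341 FPKM, and Adamts14 from 0.0794 to 0.374 and from 0.0692 to 0.182 FPKM, in controls and CKOs. Both were highest in control 1.

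Of the other ADAMTS genes, Adamts10, whose product binds fibrillin and whose loss causes Weill-Marchesani syndrome in humans, was at 0.724 to 1.48 FPKM in the controls and 1.33 to 1.63 in the CKOs. Its log2 fold change was 0.42 (SE 0.15, unadjusted P = 0.0139, limma adjusted P = 0.147), and 0.25 (unadjusted P = 0.0814) after median-ratio scaling. Control 1 was the highest control at 1.48 FPKM, and without it the log2 fold change was 0.51 (adjusted P = 0.0379). Adamts12 was at 3.74 FPKM in control 1 and at 1.38 to 1.61 in the other controls. Its CKO values ran from 0.920 (CKO 5) to 2.64 (CKO 1), on both sides of the other controls, with an unadjusted P of 0.597. Adamts6 ran from 0.159 to 0.654 and from 0.248 to 0.566 FPKM. The other 6 genes of this class were not tested, and the highest value among them was 0.206 FPKM, for Adamts7 in CKO 1. Adamts13, the protease of von Willebrand factor made mainly in the liver, had signal in CKO 1 only, at 0.0116 FPKM.

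All 5 ADAMTS-like genes were tested, and 3 of them were higher in the CKOs at an unadjusted P below 0.05, of which Adamtsl4 passed the adjusted threshold. ADAMTSL4 binds fibrillin microfibrils and is known for its part in holding the lens of the eye. Adamtsl4 ran from 0.915 FPKM (control 4) through a median of 1.07 to 1.16 (control 1) in the controls and from 1.22 (CKO 1) through a median of 1.62 to 2.17 (CKO 3) in the CKOs. The groups did not overlap, and the controls lay close together, with an SD of 0.0979. The log2 fold change was 0.59 (SE 0.14, limma adjusted P = 0.0458). After median-ratio scaling it was 0.41 (adjusted P = 0.211), and without control 1 it was 0.61 (adjusted P = 0.0228). The adjusted P passed in 8 of 22 alternatives. It was above the threshold when any of controls 2 to 6, or CKO 3, 4 or 6, was left out (at most 0.109).

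Adamtsl1, an extracellular matrix protein also called punctin, ran from 0.294 FPKM (control 4) through a median of 0.421 to 0.991 (control 1) in the controls and from 0.540 (CKO 5) through a median of 0.949 to 1.51 (CKO 4) in the CKOs. Controls 2 to 6 lay at or below 0.437, under every CKO, and control 1 lay in the range of the CKOs. Its log2 fold change was 0.85 (SE 0.27, limma adjusted P = 0.106) and 1.04 without control 1 (adjusted P = 0.0158). Adamtsl2, a microfibril protein whose loss causes geleophysic dysplasia in humans, split the CKOs. CKO 1, 3 and 6 were at 2.63, 2.17 and 2.66 FPKM, CKO 2 was at 1.45, and CKO 4 and CKO 5 were at 0.553 and 0.754, within the controls (0.508 to 1.34). Its log2 fold change was 0.94 (SE 0.35, unadjusted P = 0.0177, adjusted P = 0.160). Adamtsl3 ran from 0.634 to 1.89 FPKM, with control 1 highest, and from 0.821 to 1.12 in the CKOs (unadjusted P = 0.615). Adamtsl5 was level, at 1.14 to 2.25 and 1.63 to 1.95 FPKM, with a log2 fold change of 0.02 (SE 0.15).

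Among the membrane-type MMPs, which stay on the cell surface, Mmp14 and Mmp15 were higher in the CKOs at an unadjusted P below 0.05 and did not pass the adjusted threshold. MMP14 cuts collagen around the cell and activates MMP2. Mmp14 ran from 1.09 FPKM (control 6) through a median of 1.73 to 2.06 (control 3) in the controls and from 1.59 (CKO 5) through a median of 2.50 to 3.89 (CKO 1) in the CKOs. Of the 6 CKOs, 5 lay above every control, and CKO 5 lay within them. The log2 fold change was 0.65 (SE 0.21, unadjusted P = 0.00763, limma adjusted P = 0.117), and 0.47 after median-ratio scaling (unadjusted P = 0.0250). Mmp15, a close relative of MMP14, ran from 0.865 (control 1) to 1.68 FPKM in the controls and from 1.52 to 2.34 in the CKOs. Here control 1 was the lowest control. The log2 fold change of Mmp15 was 0.47 (SE 0.17, unadjusted P = 0.0120, adjusted P = 0.140) and 0.30 after median-ratio scaling (unadjusted P = 0.130). Mmp16 ran from 0.0186 to 0.234 and from 0.0934 to 0.202 FPKM. Mmp17, Mmp24 and Mmp25 stayed at or below 0.0857 FPKM and were not tested.

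Mmp2, the gelatinase that cuts denatured collagen and type IV collagen, was the most abundant protease of the set. It was at 15.2 FPKM in control 1, at 5.72 to 8.22 in controls 2 to 6 and at 7.54 (CKO 5) to 14.1 (CKO 1) in the CKOs. Of the 6 CKOs, 5 lay above controls 2 to 6, and all 6 lay below control 1. The log2 fold change was 0.44 (SE 0.22, unadjusted P = 0.0600, limma adjusted P = 0.272) with all mice. Without control 1 it was 0.64 (adjusted P = 0.0210), and it was 0.25 (adjusted P = 0.578) after median-ratio scaling.

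Timp2, the partner of MMP14 in the activation of MMP2, was highest in control 1 as Mmp2 was. It was at 14.9 FPKM in control 1, at 5.39 to 7.96 in controls 2 to 6 and at 7.94 to 10.4 in the CKOs. Its log2 fold change was 0.26 (SE 0.19, limma adjusted P = 0.453) with all mice, 0.45 (adjusted P = 0.0289) without control 1 and 0.07 (adjusted P = 0.889) after median-ratio scaling. The ratio of Mmp2 to Timp2 within a mouse ran from 0.921 to 1.06 in the controls, control 1 included, and from 0.947 to 1.35 in the CKOs. CKO 1, 2 and 3 were at 1.35, 1.26 and 1.30, above every control, and CKO 4, 5 and 6 lay within the controls.

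Set beside the fibroblast markers, Mmp2, Timp2, Adamts2, Mmp14 and Adamts12 overlapped between the groups. As a percentage of the sum of 10 fibroblast markers in the same mouse, Mmp2 was at 1.66% (control 1) to 2.58% in the controls and 2.04% to 2.83% in the CKOs. Timp2 was at 1.63% to 2.77% and 1.77% to 2.39%, and Adamts2 at 0.376% to 0.514% and 0.453% to 0.553%. Mmp14 was at 0.222% to 0.645% and 0.431% to 0.740%, and Adamts12 at 0.408% to 0.652% and 0.249% to 0.621%. Adamts20 was at 0.200% to 0.448% of this sum in controls 1 to 5, at 0.636% in control 6 and at 0.547% to 1.42% in the CKOs. All 6 CKOs thus lay above controls 1 to 5, and 4 of the 6 lay below control 6, with CKO 4 and CKO 5 both at 0.634%. The fibroblast list had 3 of 10 genes higher at an unadjusted P below 0.05 with all mice and 9 of 10 without control 1, beside 18.1% and 27.2% of all genes, and none of its genes was at 0. Its part in the differences of the metalloprotease genes was not tested.

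The other 3 Timp genes did not pass the test, and their direction was not stable. Timp3, which binds to the matrix and blocks ADAM and ADAMTS proteases as well as MMPs, ran from 12.8 FPKM (control 3) through a median of 23.5 to 28.4 (control 1) in the controls. In the CKOs it ran from 18.1 (CKO 1) through a median of 24.0 to 28.8 (CKO 4). Timp4, a TIMP of heart and skeletal muscle, was at 15.03 FPKM in control 1, at 7.66 to 9.37 in the other controls and at 6.55 (CKO 4) to 12.9 (CKO 5) in the CKOs. Timp1, which many tissues induce on injury, was low, at 0 (control 4) to 0.313 FPKM in the controls and 0 (CKO 5) to 0.481 in the CKOs. Their log2 fold changes were 0.10 (SE 0.18), 0.13 (SE 0.18) and 0.08 (SE 0.42) with FPKM as deposited, and all 3 were below 0 after median-ratio scaling, at -0.09, -0.05 and -0.02. Timp1, Timp3 and Timp4 lie within the synapsin genes Syn1, Syn3 and Syn2 in the genome. Syn1 was at 0.0189 to 0.0874 FPKM, below Timp1 wherever Timp1 was above 0 (0.129 to 0.481). In control 4 and CKO 5, where Timp1 was at 0, Syn1 was at 0.0537 and 0.0296 FPKM. Syn2 and Syn3 were at 0.0884 to 0.317 FPKM, far below Timp4 and Timp3. The strand setting of the counting is not given in the sources used here, so reads of Syn1 and Timp1 may not be fully separated.

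**Figure D4:**
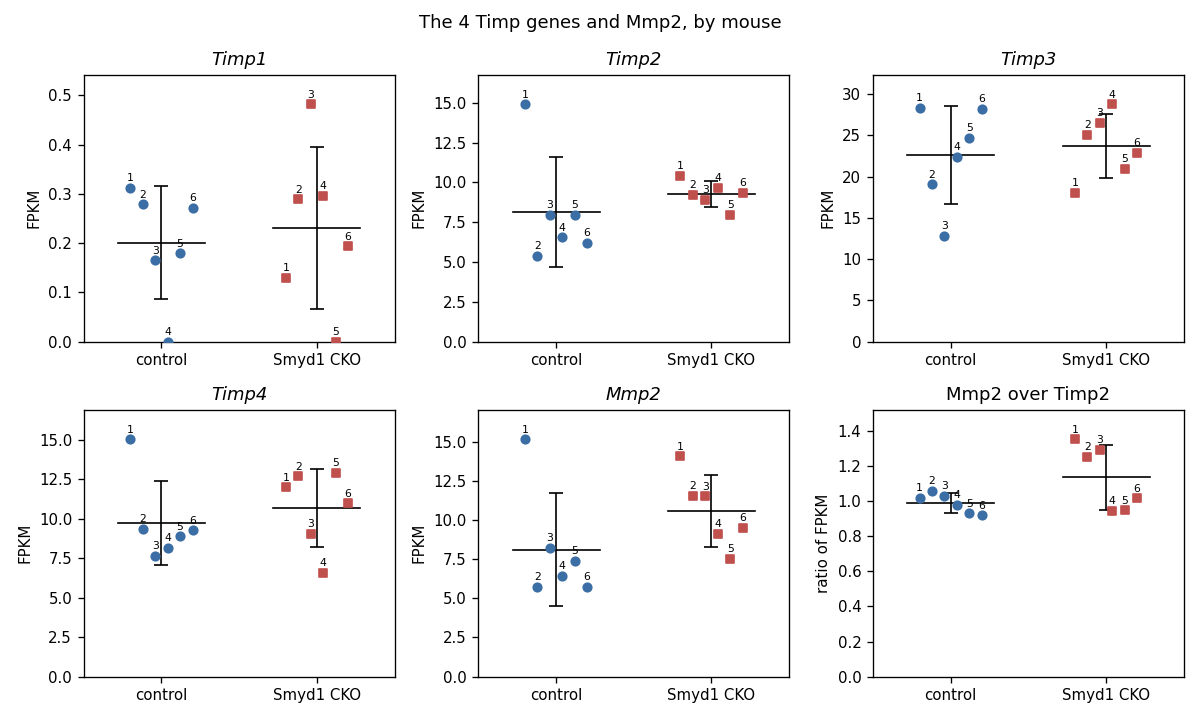
FPKM by mouse of Timp1, Timp2, Timp3, Timp4 and Mmp2, and the ratio of Mmp2 to Timp2 (last panel). Circles are controls, squares are Smyd1 CKOs, numbers beside points are replicate numbers, lines are means and bars are 1 SD (n = 6 per group, cut at 0); control 1 is highest for Timp2, Timp4 and Mmp2 but its Mmp2 to Timp2 ratio lies within the other controls.

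Mmp13, a collagenase typical of bone and cartilage, differed more between single mice than between the groups. CKO 4 was at 5.03 FPKM, CKO 6 at 3.28 and CKO 5 at 0.773, and control 4 was at 0.606. The other 8 mice were at 0 to 0.192 FPKM. The gene reached 0.1 FPKM in 5 mice, which is under the 6 required, and it was not tested. Mmp9, the gelatinase of neutrophils and osteoclasts, was at 0.395 FPKM in CKO 6, 0.170 in CKO 4, 0.115 in CKO 1 and 0.112 in CKO 3, all above the highest control (0.107, control 4), and CKO 2 and CKO 5 lay within the controls. Read from its steps of FPKM, its values stood for 16 fragments in CKO 6, 9 in CKO 4 and 0 to 7 in the others. It was below the filter as well. With no filter on low values its limma unadjusted P was 0.0291 (adjusted P = 0.332), and the exact permutation test (two-sided) gave P = 0.0195, unadjusted for the number of members. For Mmp13 the unadjusted P was 0.103 in limma and 0.115 in the exact permutation test. Both genes were picked because 1 or 2 mice were high, so these P values cannot serve as tests of a group difference.

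The sum of the bone and osteoclast markers was highest in the same 2 mice, with Ibsp and Ctsk as its largest terms. Over 8 genes it was 10.8 FPKM in CKO 4 and 9.27 in CKO 6, 3.01 to 4.39 in the other CKOs and 1.40 to 5.78 in the controls. Ibsp, which codes for bone sialoprotein, was at 6.15 FPKM in CKO 4, 2.41 in CKO 6, 0.654 in control 4 and 0.433 in CKO 5, and at most 0.263 in the other mice. Acp5, the acid phosphatase of osteoclasts, was at 1.51 FPKM in CKO 6 and 0.696 in CKO 4, and at 0.0609 to 0.556 elsewhere. The other genes of the list varied in other ways. Ctsk was highest in CKO 6, but its 3.44 FPKM in CKO 4 lay below control 1 (4.73), CKO 1 and CKO 2. Phex was at 0.0751 FPKM in CKO 6 and 0.0859 in CKO 4, against up to 0.239 in the other mice, and Sp7 was at 0 in CKO 6. Dmp1 was highest in CKO 6 (0.284 FPKM) and CKO 4 (0.238), with CKO 2 next (0.217). Bglap2, a gene of osteocalcin, was at 0 in every library, and Bglap was at most 0.196 FPKM and at 0 in CKO 6. Of the 8 neutrophil and marrow markers measured, 4 (Mpo, Ngp, Camp and Elane) were at 0 in every library. Their sum was 0.366 FPKM in CKO 4 and 0.200 in CKO 6, against 0 to 1.21 over all mice. The cartilage markers summed to 0.222 to 0.746 FPKM, and Matn1 was at 0 throughout. The part of bone RNA in the Mmp13 and Mmp9 values was not tested.

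**Figure D5:**
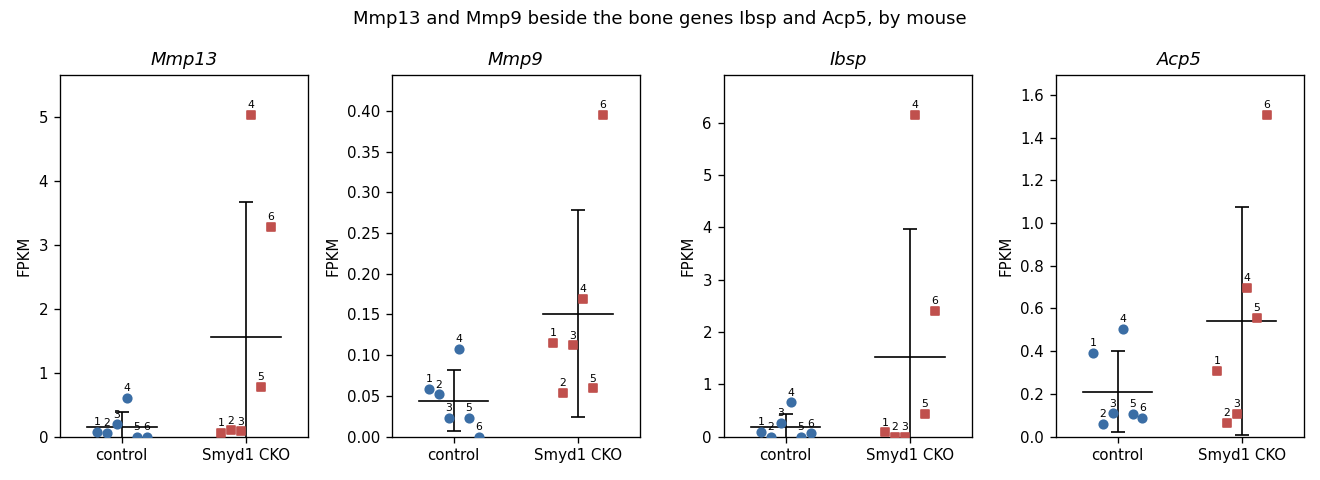
FPKM by mouse of Mmp13, Mmp9 and the bone genes Ibsp and Acp5. Circles are controls, squares are Smyd1 CKOs, numbers beside points are replicate numbers, lines are means and bars are 1 SD (n = 6 per group, cut at 0); CKO 4 and CKO 6 are the 2 highest CKOs in all 4 panels, at 5.03 and 3.28 FPKM for Mmp13.

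The neighbours of Mmp13 were low in the same mice. Mmp12, the macrophage elastase next to it, had 0 to 3 fragments per library. Mmp8, the neutrophil collagenase, had 0 to 2, and Mmp27 had 0 to 7, with its highest value at 0.301 FPKM in CKO 3. Mmp3, stromelysin 1, was the only gene of the run that was tested. It had 0 to 16 fragments, was highest in control 1 at 0.668 FPKM and in CKO 1 at 0.465, and was at 0 in CKO 3 and CKO 5 (unadjusted P = 0.540). Reads that map to several places had been discarded, so genes of the run that share stretches of sequence may have lost fragments. How much sequence they share was not measured.

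Among the remaining MMPs no gene passed the test with all mice. Mmp11, stromelysin 3, was at 0.381 to 0.488 FPKM in CKO 1, 2, 4 and 6 and at 0.190 and 0.0418 in CKO 3 and CKO 5, against 0.114 to 0.257 in the controls (unadjusted P = 0.151). Mmp23 was at 2.06 FPKM in control 1, which stood for 32 fragments, at 0.172 to 0.461 in the other controls and at 0.393 to 0.820 in the CKOs. Its unadjusted P was 0.664 with all mice and 0.0326 without control 1. It overlaps Mib2, which was at 1.16 to 2.63 FPKM and at 1.61 in control 1. Mmp19 ran from 0.264 to 0.700 and from 0.181 to 0.625 FPKM, and Mmp28 from 0 to 0.224 and from 0.0692 to 0.222. Mmp20, the enamel protease, was at 0, and Mmp21 had 0 to 2 fragments, all of them in CKOs 1, 3 and 6.

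Summed over classes, the 23 Mmp genes reached 9.26 to 13.8 FPKM in controls 2 to 6, 22.3 in control 1 and 12.7 (CKO 5) to 22.7 (CKO 1) in the CKOs, and Mmp2 was the largest term in each library. The 5 Adamtsl genes summed to 4.15 to 4.95 FPKM in controls 2 to 6, 7.64 in control 1 and 5.87 to 8.36 in the CKOs. The 19 Adamts genes summed to 16.7 to 28.2 FPKM in the controls and 17.0 to 27.8 in the CKOs, and the 4 Timp genes to 28.6 to 58.6 and 40.6 to 47.2. In the Mmp, Adamts and Adamtsl sums CKO 5 was the lowest of the CKOs.

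Other genes that act with these enzymes were counted in 5 lists, beside 18.1% of all genes higher and 1.76% lower at an unadjusted P below 0.05, or 27.2% and 1.79% without control 1. Of 13 tested activators, inhibitors and clearance receptors of metalloproteases, 4 were higher and 1 was lower in the CKOs at an unadjusted P below 0.05. Itgav, the integrin subunit that helps hold MMP2 at the cell surface, was the only one past the adjusted threshold with all mice and FPKM as deposited. It ran from 4.21 to 6.96 FPKM in the controls and from 8.42 to 11.5 in the CKOs, without overlap, with a log2 fold change of 0.86 (SE 0.12, limma adjusted P = 0.00265), or 0.68 after median-ratio scaling (adjusted P = 0.00201). Pcsk6, a proprotein convertase, ran from 1.28 to 3.03 and from 2.04 to 4.23 FPKM (limma adjusted P = 0.110, and 0.0161 without control 1). Thbs1, which codes for thrombospondin 1, was the gene lower at an unadjusted P, with a log2 fold change of -0.59 (unadjusted P = 0.00748, adjusted P = 0.116, and 0.0370 without control 1). Without control 1, Itgav, Pcsk6, Pcsk5 (limma adjusted P = 0.0479) and Lrp1, a clearance receptor (log2 fold change 0.76, adjusted P = 0.00245), were the 4 genes higher and Thbs1 the 1 lower past the adjusted threshold, beside 8.56% and 0.549% of all genes. After median-ratio scaling Bsg, an inducer of MMPs, was lower past that threshold (log2 fold change -0.41, limma adjusted P = 0.0279), and it was at -0.22 with FPKM as deposited (adjusted P = 0.263). Thbs1, Pcsk5, Lrp1 and Bsg were named after their values were seen.

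Of the 5 tested genes of the plasminogen system, which activates several MMPs, 2 were higher at an unadjusted P below 0.05. Plau, the urokinase plasminogen activator, ran from 3.92 to 10.8 FPKM in the controls and from 7.37 to 9.56 in the CKOs (log2 fold change 0.59, unadjusted P = 0.00892, limma adjusted P = 0.125, and 0.00483 without control 1). Plat, the tissue-type activator, ran from 0.269 to 1.64 and from 0.638 to 1.43 FPKM (limma adjusted P = 0.248, and 0.0422 without control 1). Of the 5 tested astacin and pappalysin genes, Bmp1, the procollagen C-proteinase, was higher at an unadjusted P of 0.0133 (limma adjusted P = 0.145, and 0.0184 without control 1), and its enhancer Pcolce was at 2.88 to 11.5 and 3.61 to 8.43 FPKM (unadjusted P = 0.0919, and limma adjusted P = 0.0191 without control 1).

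Of 9 tested ADAM sheddases, Adam17, which releases tumor necrosis factor, was higher at an unadjusted P of 0.0316 in limma (log2 fold change 0.30, adjusted P = 0.205, and 0.0309 without control 1) and did not pass after median-ratio scaling (limma unadjusted P = 0.234). Adam10 had an unadjusted P of 0.0964. Of 17 tested substrates, 2 were higher, the proteoglycan gene Bgn (7.45 to 23.7 and 11.8 to 23.7 FPKM, limma adjusted P = 0.144, and 0.00730 without control 1) and the laminin gene Lama2 (6.49 to 16.8 and 9.60 to 19.2 FPKM, adjusted P = 0.157, and 0.0113 without control 1). The substrate list summed to 1263 FPKM in control 1, 373 to 465 in controls 2 to 6 and 472 to 795 in the CKOs, and without control 1 it had 10 of 17 genes higher at an unadjusted P below 0.05. None of these 4 lists had a gene past the adjusted threshold with all mice. Without control 1, 1 ADAM, 2 astacin and pappalysin list, 2 plasminogen system and 5 substrate genes were higher past it, beside 8.56% of all genes.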

How the data were processed

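From 12 muscles, 100 ng of total RNA each was freed of ribosomal RNA (ScriptSeq Complete Gold). The authors aligned reads with TopHat2 2.0.10 to mm9 (submitters' processing notes), allowing at most 2 mismatches, discarded reads mapping to several places and computed the deposited FPKM values with Cufflinks 2.1.1. Their counts are not used here.

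Of 23950 rows per library, 27 named by a date were left out. FPKM as deposited were compared with limma 3.58.1 (trend) in R 4.3.3 on log2(FPKM + 0.1), keeping the 12695 genes that reached 0.1 FPKM in 6 or more libraries, with Benjamini-Hochberg adjustment over all of them. Depth in reads is unknown. Fragment numbers were read from the steps between low FPKM values, taking the smallest step as 1 fragment, and no intervals were computed. The labels do not say whether the mice shared litters.

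Described with their values were members past an unadjusted P of 0.05, the Timp genes, the 5 most abundant members and members in which 1 mouse stood apart. From each list of other genes, the 2 with the smallest P are named, and marker lists are given as sums. Members and lists were chosen with earlier results of these data known. Mmp13 and Mmp9 are described because 1 or 2 mice were high. The reference tables are GRCm38.p6 and gave gene order and promoter windows. No coordinate was taken from mm9. Alternatives were other pseudocounts, filters, scalings and weights, a replicate block, an exact permutation test over 924 assignments and leaving out each mouse.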

Additional observations from a re-analysis of the deposited data

Results flagged for a closer look

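In 36 members that reached 0.1 FPKM in at least 1 mouse, each group of 6 mice was examined for a single mouse whose gap to the nearest other, on log2(FPKM + 0.1), was above 0.625 of the whole range of the group. This gave 9 of 72 groups. The rule is set to flag about 1 in 20 groups of independent values, but these groups share the same mice. The share flagged over all genes was not computed, so the count does not set the members apart from other genes. Control 1 was the high mouse in 6 of the 9 groups. It was at 3.74 FPKM for Adamts12 (other controls 1.38 to 1.61), 3.44 for Adamts2 (1.20 to 1.60), 0.991 for Adamtsl1 (0.294 to 0.437), 15.2 for Mmp2 (5.72 to 8.22), 2.06 for Mmp23 (0.172 to 0.461) and 15.03 for Timp4 (7.66 to 9.37). Adamtsl5 was low in control 5, at 1.14 FPKM against 1.76 to 2.25 in the other controls. Mmp19 was low in CKO 5, at 0.181 FPKM against 0.414 to 0.625 in the other CKOs. Timp1 was at 0 in control 4, against 0.165 to 0.313 FPKM in the other controls. On the FPKM scale 16 groups were flagged, 6 of them among these 9.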

How the results depend on the processing

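The count of 7 higher members at an unadjusted P below 0.05 became 11 with limma sample weights, where 29.2% of all genes were higher, and ran from 7 to 11 when 1 mouse was left out (11 without control 1, where 27.2% of all genes were higher). The count of 2 past the adjusted threshold became 1 with a pseudocount of 1, no filter on low values, median-ratio scaling, quantile normalization or the replicate block, and 8 with sample weights (11% of all genes), and ran from 1 to 7 when 1 mouse was left out (7 without control 1, 8.56% of all genes). The count of 1 lower member at an unadjusted P became 2 without a filter, with median-ratio scaling, and with median-ratio scaling and without control 1 (the last chosen after seeing the data). Past the adjusted threshold it became 0 without a filter and with limma without trend (adjusted P of Adamts8 0.122 and 0.0515), and ran from 0 to 1 when 1 mouse was left out. The cause was not tested.

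Timp1, Timp3 and Timp4 reversed after median-ratio scaling, to log2 fold changes of -0.0202, -0.0852 and -0.0514. Timp1 (-0.0684) and Timp3 (-0.00534) reversed with quantile normalization, and Timp3 (-0.0560) with median-ratio scaling and without control 1. When 1 mouse was left out, the log2 fold change of Timp1 ran from -0.211 (without control 4) to 0.389 (without CKO 5) and that of Timp3 from -0.0511 (without control 3) to 0.177 (without control 1). Adamts1, Adamts8, Adamts10, Adamts20, Adamtsl1, Adamtsl2, Adamtsl4, Mmp2, Mmp14, Mmp15 and Timp2 kept their direction in every alternative run. Direction in every alternative was read for these and for Timp1, Timp3 and Timp4 only. Log2 fold changes of Adamts3, Adamts5, Adamts6, Adamts12, Adamtsl3, Adamtsl5 and Mmp19 were also above 0 with FPKM as deposited and below 0 after median-ratio scaling.

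With the replicate number as a block, 9 members were higher and 1 lower at an unadjusted P (19.2% and 1.97% of all genes) and 1 and 1 past the adjusted threshold (2.14% and 0.315%), with Adamtsl4 lost (adjusted P 0.0871). Same-numbered mice showed little shared deviation (mean correlation 0.04, range -0.09 to 0.16, above 0.1 in 2 of 6 pairs), beside a mean of -0.01 over the other control and CKO pairs. Such low values cannot tell whether same-numbered mice shared a litter or a batch. Depth limits the members with few fragments, which include the tested Mmp3 (0 to 16), Mmp11 (1 to 18) and Mmp16 (1 to 13).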
